A study of Mus musculus with 4 samples.

Results

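Alveolar macrophages were described in single-cell RNA libraries of lungs from male C57BL/6 mice, with BPTES compared with DMSO. The mice were 19 months old at the start and were dosed for 1 month with BPTES, a small-molecule inhibitor, or with its vehicle, DMSO. There were 2 libraries in each group, BPTES 1 and 2 and DMSO 1 and 2. Digestion of the lungs took 1 hour, per the labels' protocols, and 20000 CD45-negative and 9000 CD45-positive sorted cells of the same tissue were mixed for each library. No allele or transgene is named, and both groups share the strain, sex, age and sort. The labels do not say that the 2 libraries of a group came from separate mice, so p-values measure only the spread between these libraries, which may be technical.

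A barcode was kept when it held 500 or more genes, 1000 or more UMIs (counted RNA molecules) and no more than 10% mitochondrial UMIs. Members had at least 1 UMI of Ptprc, the gene of CD45, and at least 1 UMI of at least 4 of 7 markers: Chil3, Marco, Siglecf, Fabp1, Krt79, Ear1 and Plet1. Cells with more than 1 UMI of the B cell gene Cd79a or the T cell gene Cd3e were left out. The rule found 236 members among 68675 kept barcodes, of which 25254 were positive for Ptprc. BPTES 1 held 57 members, BPTES 2 held 98, DMSO 1 held 26 and DMSO 2 held 55. Values for the 4 libraries are given in that order below.

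Alveolar macrophages live on the air side of the alveoli, where they take up inhaled particles, dead cells and used surfactant, the lipid and protein film that AT2 epithelial cells secrete. Their identity depends on the growth factors GM-CSF and TGF-beta and on the lipid-sensing transcription factor PPAR-gamma. They largely renew by dividing in place, while interstitial macrophages of the lung tissue, marked by complement C1q genes, are replaced more from blood monocytes.

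Members were deep cells. Their median UMI numbers were 43656, 41179, 44115.5 and 39704, against medians of 14284 to 16184 over all kept barcodes, and their median gene numbers were 6200, 6150, 6136 and 6092. The summed UMIs per library were 2605375, 4139955, 1086296 and 2255856, so DMSO 1 gave the least precise values. No doublet caller was run. Members with at least 2 UMIs each of 3 or more markers of 1 of 14 other lineages numbered 13, 11, 4 and 10 and are called possible doublets below. Between 65 and 104 kept barcodes were shared by a pair of libraries, and 0 of them were members.

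The markers of the rule describe the class and are not results. A UMI of Chil3, a secreted chitinase-like protein, was in 100%, 100%, 100% and 98.2% of members, and of Plet1 in 98.2%, 100%, 100% and 98.2%. Ear1, a ribonuclease with near-identical copies in the genome, was in 100%, 99.0%, 96.2% and 96.4%. Siglecf, a sialic acid receptor, was in 68.4%, 82.7%, 92.3% and 87.3%, and the keratin gene Krt79 in 73.7%, 80.6%, 88.5% and 74.5%. Fabp1, a fatty acid binding protein, was in 50.9%, 84.7%, 100% and 81.8%. The scavenger receptor gene Marco was in 28.1%, 34.7%, 3.85% and 16.4% of members, with a median of 0 UMIs in every library, and in DMSO 1 a single cell held 105 Marco UMIs. Chil3 is also a gene of classical monocytes, and a UMI of it was in 68.8%, 74.4%, 76.0% and 80.4% of them. Over all other Ptprc-positive cells Chil3 was in 12.5% to 17.5%, while Marco was in at most 0.246%.

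**Figure D1:**
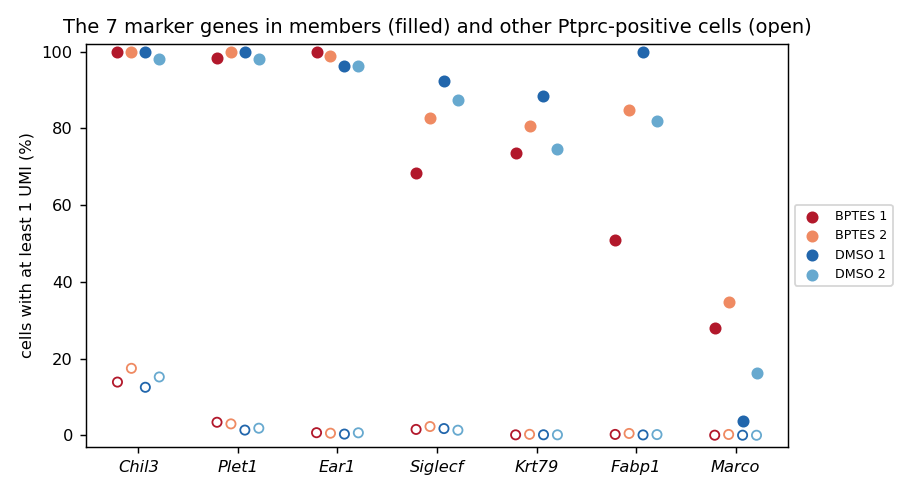
Share of cells with at least 1 UMI of each of the 7 marker genes, in percent, for members (filled points) and for all other Ptprc-positive cells (open points) of each library. Chil3, Plet1 and Ear1 were in at least 96.2% of members of every library, while Marco was in 3.85% to 34.7%.

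Members at the edge of the rule, with exactly 4 markers, numbered 21, 11, 1 and 8, and cells just outside it, with exactly 3, numbered 12, 5, 6 and 4. In BPTES 1 the cells with 3 markers had a median of 31984 UMIs and those with 4 had 39315, and Pparg was in 11 of 12 and in 21 of 21 of them. In BPTES 2 Pparg was in 3 of the 5 cells with 3 markers, and 2 of the 5 held 230 UMIs of the interstitial macrophage gene C1qa. In DMSO 1 the cells with 3 markers had a median of 8221 UMIs, Pparg was in 4 of the 6, and 4 of the 6 held 670 UMIs of the neutrophil gene S100a8. In DMSO 2 Pparg was in 4 of 4. The mean number of markers per member was 5.19, 5.82, 5.81 and 5.53.

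The label was checked with genes outside the rule. Pparg, the gene of PPAR-gamma, had a UMI in at least 99.0% of members of every library, and in 46.3% to 62.8% of interstitial macrophages and 7.97% to 8.45% of T cells. After thinning every cell to 5000 UMIs it was in 78.6%, 81.6%, 96.2% and 74.5% of members, 26.2% to 34.0% of interstitial macrophages and 4.01% to 5.60% of T cells. Among genes with at least 200 CPM (UMIs scaled to the same total in every library) in members, 844 in all, 38 were at least 10-fold higher than in other Ptprc-positive cells. These genes lead cells chosen by correlated markers, so the folds are a description without a test. The largest fold, 391, was that of Htr2c, a serotonin receptor gene, at 274, 335, 647 and 361 CPM. Cidec, which coats lipid droplets, followed with a fold of 336, at 131, 290, 223 and 272 CPM. Kcnip4, a potassium channel regulator, had a fold of 200 and 1149, 2213, 3394 and 2376 CPM, and a UMI in 45.6% of members of BPTES 1 against 83.6% to 96.2% in the other libraries. Atp6v0d2, a subunit of the proton pump of lysosomes, had a fold of 130, with 788, 786, 632 and 548 CPM. Lpl, the lipoprotein lipase gene, was at 2172, 2179, 2333 and 2220 CPM, a fold of 32.8. Ctsk (a lysosomal protease), Mertk and Axl (receptors for dead cells), Mrc1 (the mannose receptor), Ltc4s (leukotriene synthesis), Il18 (a cytokine) and Nceh1 (a cholesterol ester hydrolase) were also among the 20 genes with the highest folds. Interstitial macrophages also held several of these genes, with Mrc1 at 555 CPM against 1445 in members, Axl at 189 against 471 and Ltc4s at 133 against 299.

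Both sequence motifs searched occur in the promoter of Nceh1, and 1 of them in that of Hebp1, a heme-binding protein gene, so these 2 promoters are shown among the leading genes. The windows are the 250 bases before the RefSeq gene start on GRCm38.p6, the build that the mm10 of the submitters' processing notes is another name for. Capitals mark GAGGAAGT, a core sequence bound by the macrophage factor PU.1, read on either strand, and CACGTG, an E-box bound by factors such as the lysosome regulator TFEB. Hebp1 lies on the minus strand at chr6:135168216-135168465 and Nceh1 on the plus strand at chr3:27182754-27183003.
Hebp1: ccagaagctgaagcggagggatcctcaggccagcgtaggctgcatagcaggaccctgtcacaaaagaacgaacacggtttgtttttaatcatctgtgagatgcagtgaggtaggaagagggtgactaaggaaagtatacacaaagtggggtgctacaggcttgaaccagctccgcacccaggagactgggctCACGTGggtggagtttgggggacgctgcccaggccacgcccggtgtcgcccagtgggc
Nceh1: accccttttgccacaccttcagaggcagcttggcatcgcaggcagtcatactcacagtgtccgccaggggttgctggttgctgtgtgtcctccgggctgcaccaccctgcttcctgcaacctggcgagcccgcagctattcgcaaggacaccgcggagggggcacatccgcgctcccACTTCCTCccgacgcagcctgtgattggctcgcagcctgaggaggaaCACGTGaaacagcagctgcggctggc
In Nceh1 the PU.1 core, on the opposite strand, begins 73 bases before the gene start and the E-box 26 bases before it, and the E-box of Hebp1 begins 58 bases before its start. A promoter was matched for 14 of the 20 leading genes and for 7 of 7 rule markers. The PU.1 core was in 1 of the 14 against 2.79% of all genes with a promoter, the E-box in 2 of the 14 against 6.86%, and neither was in a promoter of the 7 markers. A match is a description of the letters and not a binding site.

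Members took a larger share of Ptprc-positive cells in both BPTES libraries. The shares were 1.02% (57 of 5577 cells, 95% Wilson interval 0.790 to 1.32), 1.58% (98 of 6197, 1.30 to 1.92), 0.466% (26 of 5584, 0.318 to 0.681) and 0.697% (55 of 7896, 0.536 to 0.905). These intervals cover counting error only. The BPTES and DMSO libraries did not overlap. The means were 1.30% ± 0.396 and 0.581% ± 0.163 (SD, n = 2 each), a ratio of 2.24, and the exact two-sided permutation test gave p = 0.333, the smallest value that 2 libraries against 2 allow. Interstitial macrophages, taken by 5 marker genes of their own, were at 3.59% and 4.11% with BPTES and 1.54% and 1.89% with DMSO, a ratio of 2.25. Classical monocytes were at 10.6%, 13.8%, 10.1% and 9.50%, a ratio of 1.24. B cells, taken by at least 2 UMIs of Cd79a and 0 of Cd3e, lay the other way within the same base, at 14.0%, 11.1%, 25.4% and 22.6%. With B cells left out of the base the member shares were 1.19%, 1.78%, 0.624% and 0.900%, a ratio of 1.95. With at least 5 markers required the member shares were 0.646%, 1.40%, 0.448% and 0.595%, so BPTES 1 lay close to DMSO 2.

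**Figure D2:**
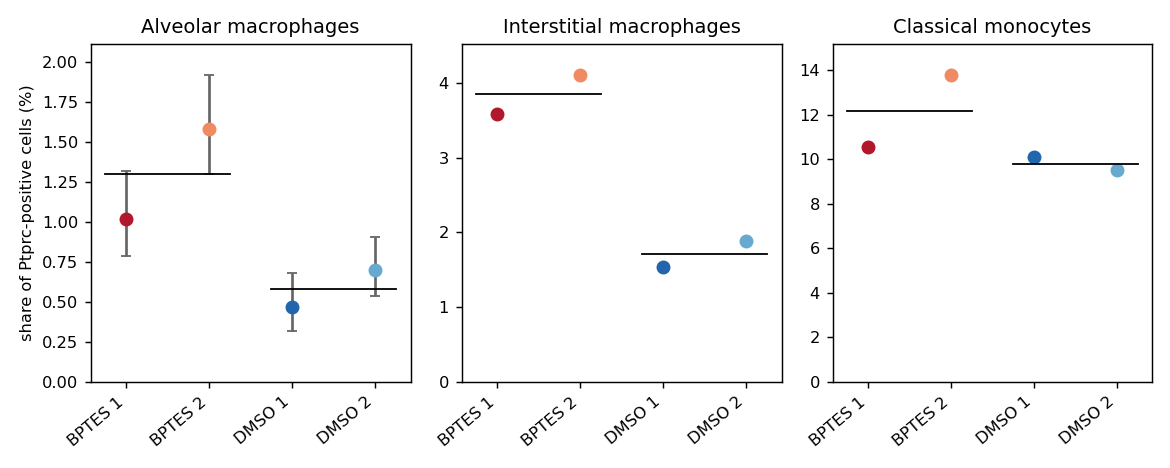
Share of Ptprc-positive cells, in percent, that were alveolar macrophages, interstitial macrophages or classical monocytes, 1 point per library, with the mean of each group as a line and 95% Wilson intervals for alveolar macrophages. Alveolar macrophages were at 1.02% and 1.58% with BPTES and 0.466% and 0.697% with DMSO.

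AT2 transcripts were a small share of member UMIs. Transcripts of 10 AT2 markers, among them the surfactant protein genes Sftpc, Sftpa1, Sftpb and Sftpd, made up 0.0263%, 0.203%, 0.0172% and 0.0225% of member UMIs (exact permutation p = 0.333). In BPTES 2, 1 member held 7494 of the 8423 AT2 UMIs (89.0%), 5653 of them of Sftpc, together with 12 UMIs of the epithelial gene Epcam and 21 of the AT1 gene Ager. Without the richest member of each library the shares were 0.0258%, 0.0228%, 0.0147% and 0.0216%. Those in BPTES libraries then lay above both DMSO values, by a ratio of means of 1.34. With possible doublets left out the shares were 0.0265%, 0.0221%, 0.0161% and 0.0234%, and the groups overlapped (ratio 1.23, exact permutation p = 0.667). The 10 markers include Napsa, a protease gene that other immune cells hold too. It was at 54.9, 63.3, 76.4 and 102.4 CPM in members, 296 to 385 CPM in B cells and 430 to 524 CPM in classical monocytes. In members it thus lay lower in both BPTES libraries, and it counts in the shares above. A share without Napsa was not tested. For Sftpc alone the median per member was 7, 5.5, 2 and 3 UMIs, with both BPTES libraries above both DMSO libraries. T cells, which make no surfactant, held 0.194%, 0.126%, 0.0772% and 0.124%, and B cells 0.136%, 0.146%, 0.141% and 0.150%. In T cells too a single cell held much of the total, 34.1%, 40.2%, 48.7% and 38.3%, and without it the T cell shares were 0.128%, 0.0755%, 0.0396% and 0.0766%. With the richest cell left out of both classes, members had the smaller share in all 4 libraries. The median share over single cells was 0.0237%, 0.0211%, 0.0154% and 0.0199% in members and 0.0339%, 0.0240%, 0.00765% and 0.0175% in T cells. By that measure members lay above T cells in both DMSO libraries. A UMI of Sftpc was in 100%, 98.0%, 92.3% and 98.2% of members and in 97.7%, 95.0%, 64.6% and 90.1% of T cells, whose median depth was 16919 to 17634 UMIs. After thinning every cell to 5000 UMIs it was in 53.6%, 55.1%, 38.5% and 32.7% of members and in 70.7%, 60.5%, 28.1% and 52.2% of T cells. The thinned share of members lay above that of T cells in DMSO 1 only. By level, Sftpc was at 164, 1497, 74.6 and 94.4 CPM in members and at 1397, 914, 559 and 887 CPM in T cells. Single cells rich in AT2 transcripts weigh on both series, so no expression by members is read from them. AT2 cells were 2.43% and 2.33% of kept barcodes with BPTES and 0.691% and 1.08% with DMSO.

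**Figure D3:**
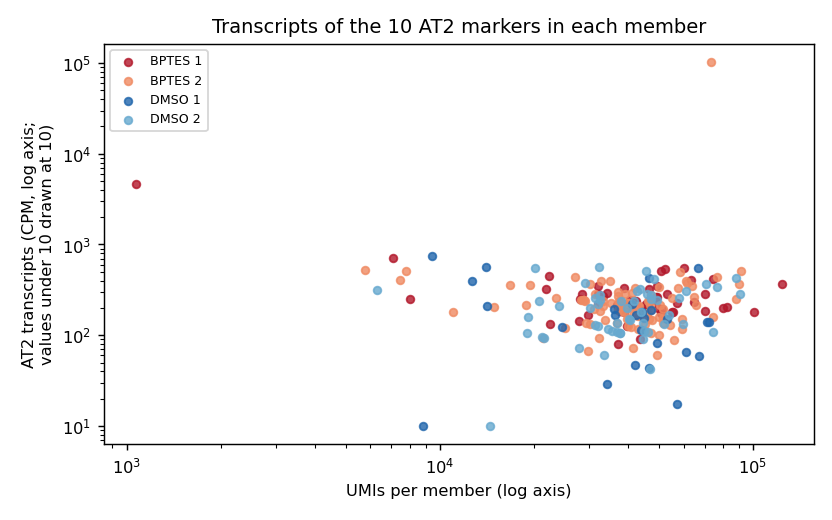
AT2 transcripts of each member, in CPM of that cell, against its UMIs, both on log axes, coloured by library. A single BPTES 2 member with 73235 UMIs stands far above the others, and the library medians lie between 154 and 237 CPM.

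No gene passed the test between BPTES and DMSO in members. The edgeR quasi-likelihood test on UMIs summed per library called 0 of 10378 genes at an adjusted p under 0.05 (0%). At an unadjusted p under 0.05 there were 679 genes (6.54%), 300 higher (2.89%) and 379 lower (3.65%) with BPTES. Both BPTES values lay above both DMSO values for 2052 genes (19.8%) and below them for 1968 (19%). Call counts rested on the method and on single libraries: DESeq2 called 19 genes, among them Adgrl3, C1qa, C1qb, C1qc, Ccl6, Fabp5, Fn1 and Hmcn1 of those named below, no filter on low counts gave 393, and leaving out BPTES 1 gave 58. The genes below are therefore values that did not pass the edgeR test, given as TMM-scaled CPM with log2 fold changes of BPTES over DMSO. All have an adjusted p of 0.180 or more in it.

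The 8 genes with the smallest p on the higher side include C1qb, described further on. Fabp5, a fatty acid carrier, was at 282, 302, 104 and 147 CPM, a log2 fold change of 1.20 (SE 0.175, adjusted p = 0.683). Dgat2, which makes the last bond of triglycerides, was at 75.4, 62.5, 28.5 and 37.1 CPM (1.04, SE 0.208). Fabp5 in members was 17.8% of its level in AT2 cells. With possible doublets left out, which takes away the member rich in AT2 transcripts but not free RNA, its log2 fold change was 1.09. The part of AT2 RNA in the Fabp5 values was not tested. Txnrd1, an antioxidant reductase, was at 371, 387, 264 and 253 CPM (0.55, SE 0.102). Fbxl5, which senses iron and marks an iron regulator for breakdown, was at 228, 217, 135 and 142 CPM (0.68, SE 0.111). Ftl1-ps1, at 139, 126, 78.2 and 83.0 CPM (0.71), is a pseudogene copy of the ferritin gene Ftl1, and reads of the pair may be split. The zinc transporter gene Slc39a2 was at 36.7, 34.0, 12.9 and 17.7 CPM (1.17), and the chemokine gene Ccl6 at 3061, 3000, 2102 and 2246 CPM (0.48). Apart from Fabp5 and C1qb, each of these genes had an adjusted p of 0.710.

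On the lower side, Hmcn1, an extracellular matrix protein gene, was at 78.5, 65.8, 188 and 165 CPM, a log2 fold change of -1.29 (SE 0.150, adjusted p = 0.405). Adgrl3, an adhesion receptor gene, was at 108, 99.8, 391 and 247 CPM (-1.61, SE 0.226, adjusted p = 0.667). Fn1, the fibronectin gene, was at 389, 375, 854 and 609 CPM (-0.93, SE 0.171, adjusted p = 0.710). All 3 were higher in DMSO 1 than in DMSO 2, and both DMSO values lay above both BPTES values. Ecm1, another matrix protein gene, was at 25.5, 23.8, 61.7 and 48.1 CPM (-1.14). Cd180, a receptor gene of the Toll-like family, was at 23.6, 19.6, 43.3 and 56.5 CPM (-1.23, and -0.77 with possible doublets left out). The kinase gene Fyn (-0.68), the ubiquitin ligase gene Mid1 (-1.03) and AC149090.1 (-0.83) complete the 8 genes with the smallest p on that side. The fibroblast markers summed to 234, 34.1, 326 and 111 CPM in members, with 79.9% of the DMSO 1 UMIs in 1 cell. Their part in these values was not tested, and with possible doublets left out Hmcn1, Adgrl3 and Fn1 had log2 fold changes of -1.84, -2.52 and -0.93. In interstitial macrophages the log2 fold changes of these 3 genes were -1.43, -1.12 and 1.22. In unscaled CPM Hmcn1 was at 124 in members, 73.7 in T cells and 86.5 in B cells. Adgrl3 was at 211, 84.7 and 92.3 in these classes. Whether members made these transcripts was not tested.

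**Figure D4:**
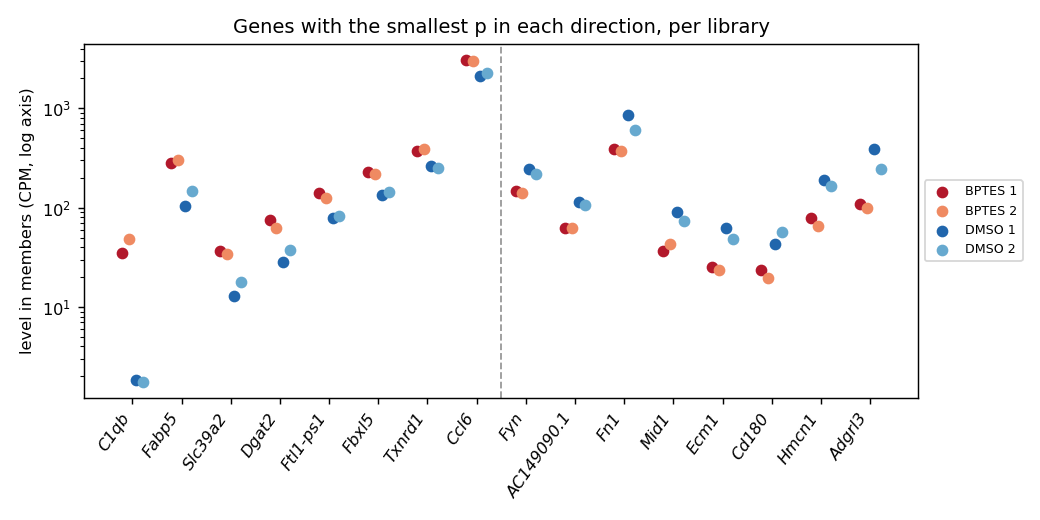
Level of the 16 genes with the smallest p in members, in TMM-scaled CPM on a log axis, 1 point per library, with genes higher with BPTES left of the dashed line. The 2 BPTES points lie on one side of the 2 DMSO points for every gene by the rule that chose them, and C1qb has the widest gap, 35.2 and 48.4 against 1.84 and 1.77 CPM.

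C1qb, a subunit of the complement starter C1q, had the smallest adjusted p (0.180) and a log2 fold change of 4.51 (SE 0.368). Its UMIs were 91, 195, 2 and 4, and 2 cells held 97.8% of them in BPTES 1 and 61.0% in BPTES 2. It was in 4, 8, 2 and 4 members, and in members it was 0.870% of its level in interstitial macrophages. C1qa had 57, 79, 2 and 1 UMIs and C1qc had 55, 116, 0 and 1. With possible doublets left out, a setting that itself uses C1q genes, C1qb had 2, 97, 1 and 3 UMIs, C1qa 0, 3, 2 and 1, and C1qc 1, 50, 0 and 1. In unscaled CPM C1qb was then at 1.15, 28.0, 1.22 and 1.74, so BPTES 1 lay below both DMSO libraries. With the 2 members of most UMIs left out of each library C1qb was at 1.26, 42.2, 1.06 and 1.93 CPM. The groups thus overlapped in both settings. With all members, the 5 markers of interstitial macrophages summed to 88.7, 101, 8.29 and 9.75 CPM. The C1q values therefore rest on few cells.

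Genes of alveolar macrophage identity were measured in full. Of 24 listed genes 23 were tested, and 0 were called, with 10 separated higher and 0 separated lower, where separated means that both BPTES values lay on one side of both DMSO values (19.8% of all genes higher, 19% lower). The median log2 fold change was 0.13, against -0.0050 over all genes. Pparg overlapped, at 460, 591, 499 and 522 CPM, as did Itgax (CD11c) at 279, 338, 318 and 277. Ear2 overlapped too, at 1476, 1775, 1751 and 1616. Fabp5, given above, and Car4 were among the genes that separated higher. Car4, a carbonic anhydrase gene, was at 193, 200, 168 and 120 CPM (log2 fold change 0.47), and Atp6v0d2 at 794, 807, 631 and 546 (0.45). The Car4 value was 0.11 with possible doublets left out, 0.71 without DMSO 1 and 0.23 without DMSO 2. A UMI of Car4 was in 66.7%, 67.3%, 30.8% and 45.5% of members, and 2 cells held 18.3%, 14.3%, 78.0% and 44.6% of its UMIs. Fabp4, the fatty acid carrier that marks mature cells, was at 85.9, 235, 35.9 and 97.5 CPM, and the groups overlapped.

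Among 13 genes of growth factor signals, 3 separated higher and 6 lower (19.8% and 19% over all genes), with a median of -0.17. Csf2rb, the shared signalling chain of the GM-CSF receptor, was at 330, 369, 284 and 255 CPM (log2 fold change 0.38, unadjusted p under 0.05 but adjusted p = 0.733). Csf2ra, its ligand-specific chain, was at 216, 215, 318 and 231 CPM, with DMSO 1 high and DMSO 2 close to the BPTES libraries. Tgfbr2 was at 275, 263, 214 and 223 CPM (0.30), while Tgfbr1 was at 275, 282, 393 and 286 and Tgfb1 at 230, 274, 295 and 286.

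Of 33 genes that handle lipid and surfactant, 10 separated higher and 3 lower, against 19.8% and 19% of all genes, with a median of 0.0049. Lipa, the lysosomal acid lipase gene, was at 581, 610, 463 and 489 CPM (0.32), and Nr1h3, the sterol sensor LXR-alpha, at 31.3, 32.3, 19.3 and 22.1 (0.60). Acot1, a fatty acyl-CoA thioesterase gene, was at 38.7, 52.4, 77.3 and 59.6 CPM (-0.56, and -0.34 with at least 5 markers required, -0.38 with cycling members left out and -0.36 without BPTES 1). The lipid droplet gene Plin2 (942, 1271, 1474 and 1263 CPM) and the sterol exporter Abcg1 (923, 1098, 1001 and 1046) overlapped. Scavenger and pattern receptors had 1 separated gene in each direction among 19 tested. Mertk was at 1142, 1075, 1627 and 1231 CPM, and Mrc1 at 1448, 1495, 1742 and 1139.

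In the lists of lysosome, respiration and iron genes more genes separated higher than lower, and 0 were called, while over all genes the shares were 19.8% and 19%. Of 28 lysosome genes, 13 separated higher and 3 lower (median 0.16), among them the protease gene Ctsd at 2132, 2065, 1548 and 1581 CPM (0.42) and the progranulin gene Grn at 355, 341, 271 and 289 (0.31). Of 24 genes of oxidative phosphorylation, 16 separated higher and 0 lower (median 0.12). Cox4i1, a subunit of complex IV, was at 670, 698, 577 and 573 CPM (0.25), and cytochrome c, Cycs, at 135, 140, 94.8 and 110 (0.41). Of 19 iron, oxidant and hypoxia genes, 14 separated higher and 0 lower, with a median of 0.40. The ferritin light chain gene Ftl1 was at 11701, 8720, 5072 and 7095 CPM (0.75) and the heavy chain gene Fth1 at 9237, 9968, 8124 and 7738 (0.28). Hmox1, which breaks down heme, was at 68.8, 109, 26.7 and 48.1 CPM (1.21), the antioxidant gene Prdx1 at 1389, 1194, 835 and 963 (0.52) and Hif1a at 137, 147, 107 and 99.3 (0.46). Ftl1 was lowest in DMSO 1, and without that library its log2 fold change was 0.52.

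Glutamine feeds the synthesis of other amino acids, nucleotides and glutathione. Glul, the gene of glutamine synthetase, was at 182, 252, 203 and 258 CPM in members, and the groups overlapped. Of 30 glutamine genes tested, 7 separated higher and 5 lower, near the 19.8% and 19% of all genes, and the median was 0.025. Slc38a1, a glutamine importer, was at 65.8, 57.3, 99.4 and 116 CPM (-0.82, SE 0.160, adjusted p = 0.710). Gclc and Gclm, the 2 chains of the enzyme that starts glutathione synthesis from glutamate, were at 77.0, 97.0, 54.3 and 64.4 (0.54) and 97.1, 79.9, 51.6 and 53.8 CPM (0.74). With possible doublets left out the Gclc value was 0.11. The glutamine importer Slc1a5, at 42.9, 27.5, 35.9 and 34.4 CPM, overlapped. Of 18 amino acid stress genes, 5 separated higher and 3 lower (median 0.045). Phgdh, the first enzyme of serine synthesis, was at 103, 86.4, 53.4 and 65.3 CPM (0.65, and 0.44 with possible doublets left out). The stress factor gene Atf4 was at 143, 163, 165 and 146, and Asns was too low to test, with 11, 16, 0 and 5 UMIs.

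Of 22 inflammatory genes, 7 separated higher and 2 lower (all genes 19.8% and 19%), with a median of 0.45. Il1b was at 315, 598, 170 and 258 CPM (1.08, SE 0.335), in 84.2%, 69.4%, 46.2% and 63.6% of members. It was 18.6% of its level in interstitial macrophages, and with possible doublets left out its log2 fold change was 0.61. With at least 3 markers required it was 0.55, without BPTES 2 it was 0.54, and without BPTES 1 it was 1.48 and was called (adjusted p = 0.0168, edgeR). Osm, a cytokine gene, was at 196, 163, 110 and 119 CPM (0.64), and Cxcl16, a chemokine gene, at 17.8, 18.4, 6.44 and 6.18 (1.52, and 0.53 with cycling members left out). Ccl2, the monocyte attractant, lay the other way, at 23.6, 21.1, 70.0 and 42.4 CPM (-1.30). The neutrophil markers summed to 91.3, 523, 77.3 and 77.1 CPM in members, with 37.0% of the BPTES 2 UMIs in 1 cell, and their part in these values was not tested. Among 19 interferon genes 7 separated higher and 2 lower (median 0.25), with Ifi47, an interferon-induced GTPase gene, at 21.3, 13.9, 5.52 and 6.18 CPM (1.55).

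MHC class II genes present antigen to T cells. Of 9 tested, 0 separated higher and 6 lower, beside 19.8% and 19% of all genes, and the median was -0.56. At an unadjusted p under 0.05 there were 6, all lower, beside 3.65% of all genes, and 0 were called. Other lists had such genes too, with 9 higher and 0 lower of 19 iron, oxidant and hypoxia genes. Inflammatory genes had 7 higher and 1 lower of 22, and monocyte-derived macrophage genes 7 and 2 of 20. Over all genes 2.89% were higher at that p. Cd74, the chain that guides MHC class II proteins, was at 1993, 2689, 4301 and 2770 CPM (-0.59), H2-Ab1 at 722, 874, 1358 and 915 (-0.51) and H2-DMa at 205, 229, 345 and 295 (-0.56). DMSO 1 was the high library in each, and without it the log2 fold change was -0.24 for Cd74 and -0.20 for H2-Ab1. With possible doublets left out these were -0.99 and -0.98, with cycling members left out -0.93 and -0.95, and with at least 3 markers required H2-Ab1 was at -0.20. Ciita, the master regulator of these genes, was at 29.0, 27.1, 58.0 and 35.3 CPM (-0.70, -0.34 without DMSO 1, and -1.17 with possible doublets left out). In interstitial macrophages Cd74, H2-Aa and H2-Ab1 also had log2 fold changes below 0, at -0.44, -0.35 and -0.42. The 2 members richest in H2-Ab1 held 41.9%, 16.7%, 14.1% and 34.9% of its UMIs. Members held Cd74 at 24.1% of its level in interstitial macrophages. B cells held Cd74 at 8581 unscaled CPM. The 5 B cell markers, of which the rule limits Cd79a, summed to 4.61, 2.90, 5.52 and 5.76 CPM in members. The 5 dendritic cell markers summed to 38.0, 21.3, 26.7 and 77.1 CPM, with 59.8% of the DMSO 2 UMIs in 1 cell. In other Ptprc-positive cells Cd79a was at 177, 121, 367 and 317 CPM. The part of B cells and dendritic cells in the MHC class II values was not tested.

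Of 18 senescence genes, 3 separated higher and 5 lower, with 19.8% and 19% over all genes, and the median was -0.010. Cdkn1a, the gene of p21, was at 510, 563, 447 and 533 CPM and overlapped. Cdkn2a, the gene of p16, was too low to test, with 4, 8, 4 and 21 UMIs (1.54, 1.93, 3.68 and 9.31 CPM). Cdkn2b was at 0.774, 4.72, 9.21 and 3.97 CPM. Plaur, the urokinase receptor gene, was at 506, 540, 408 and 441 CPM (0.30). Glb1, the lysosomal galactosidase gene, was at 30.6, 33.0, 41.4 and 34.9 CPM. Of 20 genes of monocyte-derived macrophages, 9 separated higher and 2 lower (19.8% and 19% of all genes), with a median of 0.65. Trem2 was at 113, 87.9, 65.4 and 52.5 CPM (0.78), Cd63 at 359, 337, 168 and 267 (0.66), and Cx3cr1, the fractalkine receptor gene, at 14.3, 20.6, 40.5 and 43.3 (-1.25). DMSO 1 was the low library for Cd63, whose value was 0.38 without it and 1.05 without DMSO 2. The Trem2 value was 0.46 with at least 5 markers required, and that of Cx3cr1 was -0.73 with at least 3. Spp1 overlapped, at 517, 609, 970 and 394 CPM. That list holds the C1q genes described above and Fn1.

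**Figure D5:**
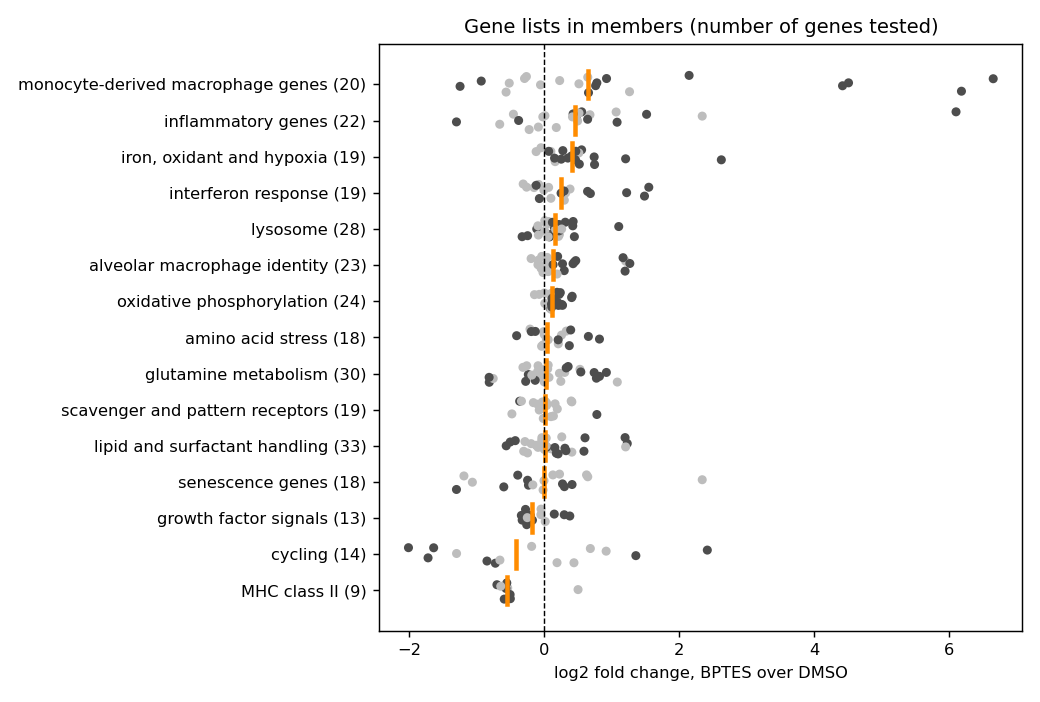
Log2 fold change of BPTES over DMSO in members for the tested genes of 15 lists, 1 point per gene, dark where the 2 BPTES libraries lay on one side of both DMSO libraries, with the list median as an orange bar and the median of all genes as a dashed line. List medians run from -0.56 (MHC class II) to 0.65 (monocyte-derived macrophage genes), and 0 genes were called.

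Cell cycle transcripts were in a part of the members. Members with at least 1 UMI of 3 or more of 15 cell cycle genes made up 22.8% (95% Wilson interval 13.8 to 35.2), 19.4% (12.8 to 28.3), 11.5% (upper bound 29.0) and 21.8% (12.9 to 34.4). The means were 21.1% ± 2.42 and 16.7% ± 7.27 (SD, n = 2 each, exact permutation p = 0.667). The order of the groups was not stable: the difference of the means was -0.721 percentage points without DMSO 1 and -0.779 with possible doublets left out. After thinning to 5000 UMIs the shares were 5.36%, 9.18%, 3.85% and 9.09%, against 1.52% to 2.49% of T cells, 0% to 2.07% of interstitial macrophages and 0% to 0.684% of classical monocytes. Mki67 was at 39.8, 119, 58.9 and 120 CPM, with 1 low and 1 high library in each group. Of 14 cycling genes tested, 2 separated higher and 5 lower (19.8% and 19% of all genes, median -0.42).

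Variation between members was led by genes of different kinds, some in nearly all members and some with most UMIs in few cells. Among 3623 genes with at least 50 CPM, ranked by variance over mean at 5000 UMIs per cell, the median ratio was 1.16. Gm42418, a transcript that overlaps ribosomal RNA, led with 107, and its median per member was 4024, 3768.5, 2921 and 2970 UMIs. Sftpc (81.3) and Sftpa1 (19.3) owed their place to the 1 BPTES 2 member described above. Mgp, a matrix protein gene, had 85.7% of its BPTES 1 UMIs in 2 cells, and Gsn, the gelsolin gene, 88.6% of its DMSO 1 UMIs in 2 cells. Mmp12, the macrophage elastase gene, was in 7.02%, 7.14%, 42.3% and 9.09% of members, and 2 cells held 99.3% of its UMIs in BPTES 1. Ftl1 (13.5), Lyz2 (12.9) and Malat1 (20.3) had a UMI in at least 98.2% of members of every library. The median of Malat1 per member was 321, 299, 417.5 and 357 UMIs. By these medians the groups did not overlap, with Gm42418 higher and Malat1 lower with BPTES. The part of Gm42418 and Malat1 in the list values was not tested.

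The treatment difference in members was compared directly with that in interstitial macrophages of the same libraries. The interaction test of edgeR called 3 of 11977 genes (0.025%), 2 with a higher fold change in members (0.0167%) and 1 with a lower one (0.00835%). Fn1 was at 389, 375, 854 and 609 CPM in members, while in interstitial macrophages it was at 2027, 2273, 1070 and 775 unscaled CPM. Its log2 fold changes were -0.93 and 1.22, a difference of -2.11 (SE 0.144, adjusted p = 0.0417). The BPTES libraries thus lay below DMSO in one class and above it in the other. Neither fold change passed on its own, at adjusted p values of 0.710 and 0.0836. In the setting with possible doublets left out, they were dropped from members only, and the interstitial macrophages stayed the same. The difference lost its call with possible doublets left out (-2.14, adjusted p = 0.0951), and without BPTES 2, DMSO 1 or DMSO 2 (adjusted p = 0.0699, 0.0669 and 0.136). C1qb (difference 4.83, SE 0.297, adjusted p = 0.0417) and C1qc (6.67, adjusted p = 0.0452) were the other 2 calls. In interstitial macrophages, which the rule for that class picks by these genes, C1qb was at 2192, 2261, 2686 and 2706 unscaled CPM. With possible doublets left out their differences were 3.48 (adjusted p = 0.909) and 4.71 (adjusted p = 0.878). Both also lost their call without DMSO 1 (adjusted p = 0.0552 and 0.0567) or DMSO 2 (0.148 and 0.150), and C1qc without BPTES 2 (0.0699). C1qa, at 4.98 with an adjusted p of 0.0559, was at -0.52 with possible doublets left out. Against classical monocytes 0 of 13700 genes were called (0%), with 828 at an unadjusted p under 0.05, 11 called by DESeq2 and 267 called without BPTES 1.

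Markers of other cell types were measured in members. The non-classical monocyte list summed to 387, 384, 372 and 412 CPM, with 6.66% to 20.5% of the UMIs in 1 cell, against 663 CPM in interstitial macrophages. Plasma cell markers summed to 234, 247, 219 and 213 CPM, with 2.74% to 9.66% in 1 cell, against 132 in interstitial macrophages. Ciliated cell markers summed to 99.0, 137, 168 and 192 CPM, with 5.81% to 19.4% in 1 cell, and the BPTES libraries lay below the DMSO libraries. Their part in the results was not tested. Erythrocyte markers were at 0 in all 5 genes, as were the eosinophil genes Il5ra, Ccr3 and Epx and the mast cell and basophil genes Cpa3, Ms4a2, Fcer1a and Mcpt8. B cell markers summed to 2.90 to 5.76 CPM and T cell markers to 1.93 to 9.98, with the rule limiting 1 gene of each. The classical monocyte list summed to 7657 to 10504 CPM, and that list holds Chil3, a gene of the rule.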

How the data were processed

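Each library was a filtered feature-barcode matrix of UMI counts over 31054 genes. The deposited counts were made by the authors with Cell Ranger 8.0.1, per the file headers, and the build is mm10, per the submitters' processing notes. Intronic reads and any removal of free RNA are not stated in the sources used here. Counts of members were summed per library and tested with edgeR 4.0.16 in R 4.3.3 (filterByExpr, TMM, glmQLFit, glmQLFTest, Benjamini-Hochberg adjustment, calls at an adjusted p under 0.05), with DESeq2 1.42.0 as an alternative. Interaction models held the library as block, the class, and class by treatment. Single values were compared by exact two-sided permutation over the 4 libraries. Thinning drew 5000 UMIs per cell without replacement, and 1 member under that depth, in BPTES 1, was left out. CPM in the treatment comparison were scaled by TMM sizes, and CPM that describe a class or its markers were not. "Separated" means that both BPTES values lay on one side of both DMSO values. The scripts were tested on simulated data.

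Named genes were the 8 per direction with the smallest p among separated genes of at least 20 CPM, the 3 most abundant genes of each list and a fixed set of genes. Further list genes were named for an unadjusted p under 0.05, after their values were seen. The members and the gene lists were chosen with earlier results of these data known. Clec7a and Mx2 were not analysed here. The results of some single genes that the rule selects are not reported here. The other steps used pandas 2.3.3, scipy 1.17.1 and numpy 2.4.6 under Python 3.11.15, and figures matplotlib 3.10.9.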

Additional observations from a re-analysis of the deposited data

Results flagged for a closer look

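The treatment difference of 3 genes differed between alveolar and interstitial macrophages by the interaction test of edgeR at an adjusted p under 0.05. For Fn1 the log2 fold change in alveolar macrophages minus that in interstitial macrophages was -2.11, with both BPTES libraries below DMSO in the one class and above it in the other. For C1qb the difference was 4.83 and for C1qc it was 6.67, and DMSO members held 6 and 1 UMIs of these genes in all. At most 8 members of a library held a C1qb UMI, and whether they are doublets was not tested with a caller. The setting with possible doublets left out, which drops members only, itself uses C1q genes, and so does the rule for interstitial macrophages. In that setting the differences were -2.14 for Fn1, 3.48 for C1qb and 4.71 for C1qc. All 3 calls were lost with possible doublets left out (adjusted p = 0.0951, 0.909 and 0.878 for Fn1, C1qb and C1qc, edgeR) and without DMSO 1 or DMSO 2, and without BPTES 2 only C1qb kept its call among the 3.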

How the results depend on the processing

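The mean member share stayed higher with BPTES across marker numbers of 3 or 5 and mitochondrial limits of 5% and 20%. It also did with possible doublets left out, all kept barcodes as the base and each library left out. Without 1 library the difference ran from 0.441 to 1.00 percentage points. With at least 5 markers required BPTES 1 was at 0.646% and DMSO 2 at 0.595%. The mean AT2 share also stayed higher, by 0.00645 to 0.184 percentage points without 1 library. With possible doublets left out it was higher by 0.00454, and BPTES 2 lay below DMSO 2. That share includes Napsa, which lay lower in both BPTES libraries. The cycling difference of 4.42 percentage points was -0.779 with possible doublets left out and ran from -0.721 to 9.56 without 1 library. In members, calls numbered 393 without a filter on low counts, 19 by DESeq2 and 0 to 58 without 1 library (58, 2, 0 and 6 without BPTES 1, BPTES 2, DMSO 1 and DMSO 2). The 3 calls against interstitial macrophages became 67 without the filter, 16 by DESeq2, 0 with possible doublets left out and 0 to 6 without 1 library. The 0 calls against classical monocytes became 91, 11, 2 and 0 to 267. The cause was not tested. Fits without a library leave 1 sample in a group, which is assumed to vary like the other group. The settings without the member richest in AT2 transcripts and without B cells in the base (0.722 percentage points) were chosen after seeing the data. So was leaving possible doublets out of both class comparisons, which dropped them from members only and not from the other class. Genes with a printed fold change were all separated, which left little room for a change of sign, so the count of sign changes does not measure stability. Genes that overlapped have no printed fold change. Across the alternatives Pparg ran from -0.15 to 0.22 and Glul from -0.35 to 0.13. C1qb, separated in the main setting, overlapped with possible doublets left out and with the 2 richest members left out. It was too low to test in these settings. For 49 genes with a printed fold change, 0 of 731 alternative values changed sign and 47, in 35 genes, passed the threshold, while for 4 more, of C1qb and Cxcl16, the gene was too low to test.

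With the replicate number as a block, 0 genes were called in members. The numbers were not read as pairs: the difference between replicates 1 and 2 correlated at r = -0.0226 between the groups over 3648 genes, which are not independent. With 2 libraries a group the permutation test cannot go below 0.333, and 26 members in DMSO 1 limit every comparison.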
